A study of Rattus norvegicus with 30 samples.

Results

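The comparison described here is that of an excess with a deficient vitamin A diet in the lungs of rats that had a Glenn operation, in cells sorted for the endothelial surface protein CD31. The 10 libraries were chosen by their labelled treatment, 5 with the Glenn operation and an excess of vitamin A in the diet and 5 with the same operation and a vitamin A-deficient diet, out of 30 libraries in 6 groups. The Glenn operation connects the upper caval vein directly with a pulmonary artery, and the lung then lacks blood that comes fresh from the liver. Both groups are labelled as wild-type rats and were sampled 3 weeks after the operation. The other groups are Glenn surgery on the control diet and sham surgery on the control, deficient and excess diets, with 5 libraries each. The labels do not say that each library came from its own animal, so p-values measure only the spread between these libraries. They give neither the vitamin A content of the diets nor any measure of retinoid in the animals.

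Vitamin A reaches tissues as retinol, which retinol and retinal dehydrogenases oxidise to retinoic acid. Retinoic acid binds nuclear receptors of the RAR and RXR families and so drives target genes, among them Rarb, a receptor gene, and enzymes that limit the signal: the CYP26 hydroxylases break retinoic acid down, and DHRS3 turns retinal back to retinol. The liver stores most of the body's vitamin A, and in the lung retinoic acid is known for its part in the growth of alveoli and their capillaries. Lungs that receive blood lacking liver effluent can form arteriovenous malformations after Glenn surgery, and the design sets dietary vitamin A beside that operation.

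RAR and RXR pairs are known to bind direct repeats of a 6-base element with a spacing of 5 bases. The sequences around the start of 3 target genes are shown as a description, and no expression result rests on them. Cyp26b1 had the smallest p of any retinoic acid-induced gene, and Cyp26a1 and Rarb are the classical targets of the same list. Each runs from 250 bases before to 50 bases after the start in RefSeq's GRCr8 build, 5′ to 3′ in the direction of the gene. The elements searched, on either strand, were AGGTCA and its variant AGTTCA, then GGGTCA and also its variant GGTTCA. Capitals mark elements that form a direct repeat with a spacing of 5 bases. Cyp26b1 lies at chr4:118616127-118616426 on the minus strand, Cyp26a1 at chr1:244883572-244883871 on the plus strand and Rarb at chr15:11336142-11336441 on the plus strand.
Cyp26b1: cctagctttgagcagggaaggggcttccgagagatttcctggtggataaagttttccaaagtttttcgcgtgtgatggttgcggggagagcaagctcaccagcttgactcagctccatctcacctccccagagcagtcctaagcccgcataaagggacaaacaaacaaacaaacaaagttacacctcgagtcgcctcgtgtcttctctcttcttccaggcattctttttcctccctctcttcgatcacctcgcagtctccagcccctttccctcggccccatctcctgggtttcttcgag
Cyp26a1: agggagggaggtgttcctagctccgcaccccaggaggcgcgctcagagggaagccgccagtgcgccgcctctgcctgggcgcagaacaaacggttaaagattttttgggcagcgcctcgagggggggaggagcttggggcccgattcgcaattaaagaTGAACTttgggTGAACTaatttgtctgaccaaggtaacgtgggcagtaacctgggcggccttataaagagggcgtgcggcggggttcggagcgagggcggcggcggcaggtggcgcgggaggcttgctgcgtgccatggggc
Rarb: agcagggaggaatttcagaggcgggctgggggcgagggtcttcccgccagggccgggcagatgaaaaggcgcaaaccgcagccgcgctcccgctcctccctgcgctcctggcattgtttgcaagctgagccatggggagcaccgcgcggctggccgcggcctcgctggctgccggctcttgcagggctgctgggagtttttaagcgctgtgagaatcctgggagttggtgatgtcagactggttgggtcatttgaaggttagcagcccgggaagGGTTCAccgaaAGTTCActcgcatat
The Cyp26a1 window held 1 such repeat, on the opposite strand at -92 to -76 from the start, and the Rarb window 1 at 25 to 41 after it, while the Cyp26b1 window held none of these letters in this arrangement. Of all 33469 promoter windows of 300 bases, 128 (0.382%) held such a repeat. Among the 13 retinoic acid-induced genes with a promoter entry, Cyp26a1 and Rarb were the only 2 with one. A match describes letters only, and these libraries do not measure binding.

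Total estimated counts in the 10 libraries were 22 to 50.5 M, and the median was 41.6 M. Pecam1 (ENSRNOG00000066008), the gene for CD31, and Cdh5 (ENSRNOG00000013324), the gene for the endothelial junction protein VE-cadherin, were abundant in all 10. Pecam1 stood at 1110 ± 96.2 CPM (counts scaled by TMM to a library total of 1 M) on the deficient diet and 1193 ± 156 CPM on the excess diet, whereas for Cdh5 the 2 levels were 2087 ± 102 and 2171 ± 173 CPM (SD, n = 5 each). The surfactant gene Sftpc of type 2 alveolar cells was also high, at 17083 ± 2045 and 18363 ± 3219 CPM, so RNA of alveolar epithelium was present in both groups. None of the 15 lists of cell type markers had a member at 0 in all 10 libraries. The library numbers fall in 2 ranges, the 300s and 598 to 606, which the labels do not explain. The deficient group holds 3 and 2 of them and the excess group 2 and 3, and 2 of the 5 deficient and 3 of the 5 excess libraries were male by their level of the Y-linked gene Ddx3y. The transplantation antigen gene RT1-CE16 stood at 21.9 to 32.8 CPM in the 5 libraries of the lower numbers. In the 5 of the higher numbers it stood at 438 to 945 CPM. Those 5 split by diet, at 943 and 945 CPM in the 2 deficient and 438 to 557 CPM in the 3 excess libraries. The cause was not tested, and within the higher numbers diet and RT1-CE16 level cannot be told apart. The first principal component (23.7% of the variance) separated the libraries of the lower from those of the higher numbers. Excess replicate 1 lay lowest on both of the first 2 components.

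Across 16171 genes tested, no gene passed the test between the excess and the deficient diet after Glenn surgery. The count was 0 (0%) at an adjusted p under 0.05 in edgeR's quasi-likelihood test with Benjamini-Hochberg adjustment, with the range of library numbers as a term, and the smallest adjusted p was 0.243. At an unadjusted p under 0.05 there were 837 genes (5.18%), of which 432 (2.67%) were higher and 405 (2.5%) lower on the excess diet, where 808.55 would be expected if no gene differed. Without excess replicate 1 that number was 467. The bins of the p-value histogram held 743 to 858 genes. DESeq2 called 18 genes (12 higher, 6 lower) and limma voom with quality weights 2, both higher. The 5 libraries of one group lay wholly above or below those of the other in 108 genes (0.668%), 49 of them (0.303%) higher and 59 (0.365%) lower on the excess diet.

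**Figure D1:**
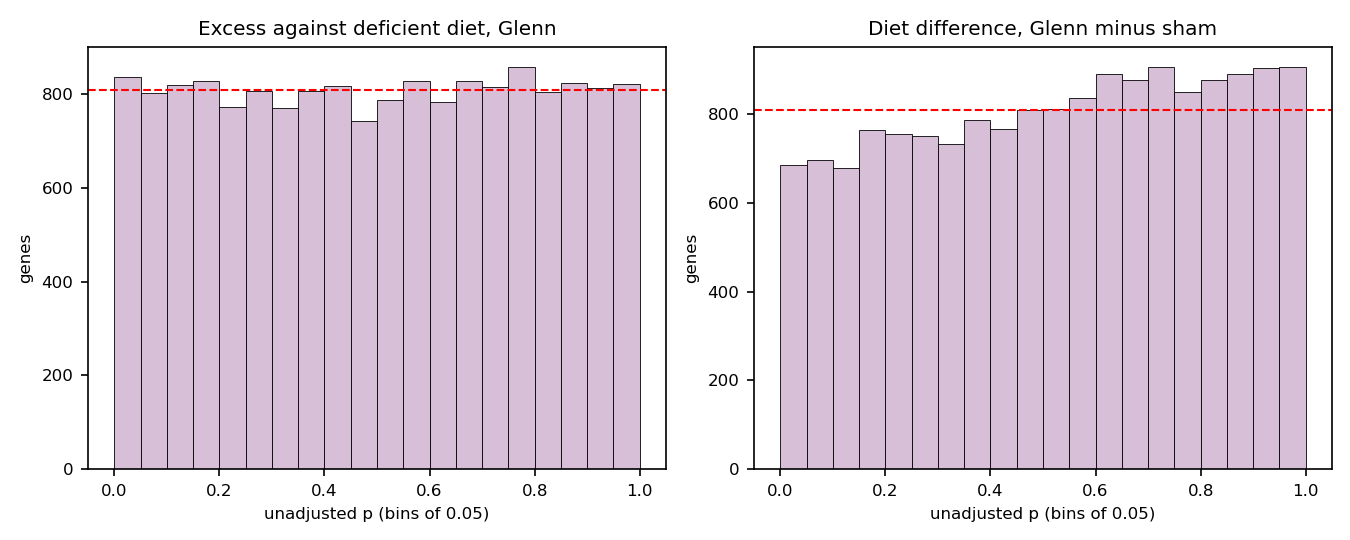
Number of genes (y axis) by unadjusted p in bins of 0.05 (x axis), for excess against deficient after Glenn surgery (left) and for the difference between that comparison and the one after sham surgery (right). The dashed line marks 808.55 genes per bin, the level of a flat distribution; on the left the first bin holds 837 genes.

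The precision of the comparison set what could be seen. The median standard error of a log2 change was 0.14 and the median size of a log2 change 0.10. Of the 13529 genes whose mean reached 1 CPM, 91.6% had a 95% interval that lay within a 2-fold change in either direction, and over all genes tested the share was 77.4%. Fitted differences of 2-fold or more numbered 53 among the former. The other comparisons of the same fit, which share libraries with this one, gave 4423 genes (27.4%) between Glenn and sham surgery on the deficient diet and 3549 (21.9%) on the excess diet. Among the Glenn groups, excess against control gave 237 genes (1.47%), and deficient against control 1 gene (0.00618%), the orphan receptor gene Gpr157. All libraries of the control diet fell in the lower range of library numbers. Both counts against control therefore rest on the library number term and could not be checked within the higher range. The same limit holds for Glenn against sham surgery on the excess diet, since all sham excess libraries fell in the lower range. The level of Gpr157 was 2.85 ± 1.14 CPM on the deficient diet and 2.01 ± 0.241 CPM on the excess diet (SD, n = 5 each), with a log2 difference of -0.31 (SE 0.22, edgeR adjusted p 0.98).

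Cyp26b1 (ENSRNOG00000015076), which encodes a retinoic acid hydroxylase, had the smallest p of the retinoid genes tested. On the deficient diet after Glenn surgery its 5 libraries held 16.2, 9.49, 21.8, 13 and 18.5 CPM, and on the excess diet 37.2, 36.1, 46.8, 43.5 and 45.4 CPM. All 5 excess libraries lay above all 5 deficient ones, at 41.8 ± 4.86 against 15.8 ± 4.77 CPM (SD, n = 5 each). The log2 difference of 1.43 (SE 0.36, 95% interval 0.68 to 2.17) had an unadjusted p of 0.000581 and an edgeR adjusted p of 0.406, so it did not pass the threshold over all genes. DESeq2 gave an adjusted p of 0.0498. The log2 difference was 1.20 among the libraries of the lower numbers and 1.53 among those of the higher numbers. On the control diet after Glenn surgery, 1 library held 45.6 CPM and the other 4 between 10.1 and 17.8 CPM. The 1 high control library lay within the excess range, and the other 4 within the deficient range. After sham surgery the level was 46.3 ± 21.1 CPM on the deficient diet and 164 ± 55.7 CPM on the excess diet (SD, n = 5 each), a log2 difference of 1.79 (edgeR adjusted p 0.294). The difference between the 2 diet effects was -0.36 on the log2 scale (unadjusted p 0.51), and it did not pass the threshold.

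The remaining genes that retinoic acid is known to induce had smaller differences, with overlapping groups. Dhrs3 (ENSRNOG00000015736), the retinal reductase, held 87.9, 73.6, 81.5, 69.3 and 76.2 CPM on the deficient diet and 89.5, 98.3, 84.7, 88.2 and 88.1 CPM on the excess diet. Only deficient replicate 1 reached into the excess range, and the log2 difference was 0.23 (SE 0.08, edgeR adjusted p 0.802). Tgm2, which encodes a transglutaminase that crosslinks proteins, stood at 993 ± 202 and 1163 ± 310 CPM, with a log2 difference of 0.29 (SE 0.11, edgeR adjusted p 0.914). Rai14, an actin-binding protein first found as a retinoic acid-induced gene, stood at 156 ± 13.8 and 178 ± 38.2 CPM (SD, n = 5 each). The groups of both genes overlapped, and each had its highest level in excess replicate 1, at 1641 and 226 CPM.

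The 2 classical targets with a direct repeat in the windows shown above did not separate the groups. Cyp26a1, the second retinoic acid hydroxylase, held 6.05, 2.11, 4.89, 2.97 and 3.11 CPM on the deficient diet and 5.92, 4.65, 3.28, 3.88 and 7.35 CPM on the excess diet, a log2 difference of 0.50 (SE 0.34, edgeR adjusted p 0.979). Rarb held 33.5, 42.7, 32.3, 30.4 and 31.8 CPM on the deficient diet and 43.6, 38.3, 38.8, 38.3 and 30.9 CPM on the excess diet, a log2 difference of 0.19 (SE 0.13, edgeR adjusted p 0.979). Both ranges overlap widely, and the 95% intervals, -0.20 to 1.20 for Cyp26a1 and -0.08 to 0.45 for Rarb, include 0.

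Of 16 listed retinoic acid-induced genes 13 were tested, and 0 passed at an adjusted p under 0.05. An unadjusted p under 0.05 was reached by 4 (30.8%, beside 5.18% over all genes tested), all higher on the excess diet (Cyp26b1, Dhrs3, Tgm2 and Rai14). The median log2 difference of the 13 was 0.23, with 9 of 13 above 0, beside a median of 0.00 and 49.9% above 0 over all genes tested. Genes of a list are not independent replicates, and no list was tested as a set. The median was 0.08 among the libraries of the lower and 0.21 among those of the higher numbers, and 0.12 without excess replicate 5. The list was drawn up with earlier results on these libraries known, and some of its genes had been seen to be higher in the same excess libraries than on the control diet.

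Genes that make, carry or sense retinoids had medians near 0. Of 18 tested retinoid enzymes, 7 were above 0, and Rdh12, a retinal reductase, had an unadjusted p under 0.05, at 12.3 ± 4.28 on the deficient diet and 7.72 ± 2.06 CPM on the excess diet (SD, n = 5 each; log2 difference -0.75, SE 0.26, edgeR adjusted p 0.801). Aldh1a2, which makes retinoic acid from retinal, held 44.8, 47.2, 55.4, 76.1 and 126 CPM on the deficient diet and 28.3, 43.9, 102, 81.2 and 65.8 CPM on the excess diet (log2 difference -0.33, SE 0.25, edgeR adjusted p 0.98). In both diets the spread of Aldh1a2 between libraries was larger than the difference of the means. Rdh10, which oxidises retinol to retinal, stood at 6.4 ± 0.957 and 6.01 ± 0.962 CPM (SD, n = 5 each). Of 20 tested receptors, cofactors and carriers, 10 were above and 10 below 0, the median was -0.01, and 0 had an unadjusted p under 0.05.

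**Figure D2:**
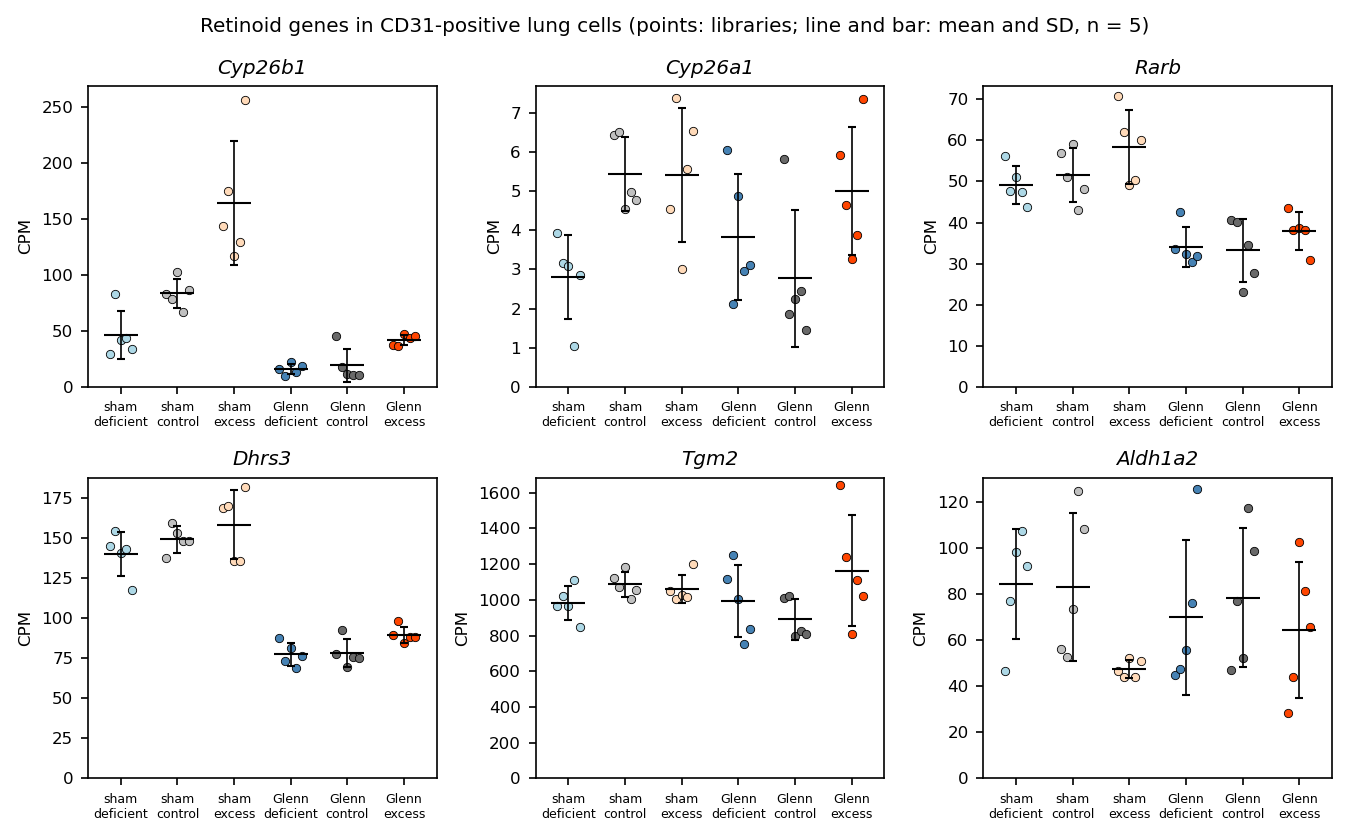
CPM (y axes, from 0) of 6 retinoid genes in each of the 6 groups of 5 libraries (x axes); points are libraries, and the line and bar give the mean and SD. For Cyp26b1 the 5 Glenn excess libraries, 36.1 to 46.8 CPM, lie above the 5 Glenn deficient libraries, 9.49 to 21.8 CPM, and the ranges of the other 5 genes overlap between those groups.

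The 12 genes with the smallest p among those higher on the excess diet have varied functions. They were Tmem252, Avpr1a, Slc52a3, Prss23, Cep85l, Cyb561, Il33, Maob, Samd12, Chn2, Ica1l and Gatm, with edgeR adjusted p from 0.243 to 0.396. They are named as a description of where the libraries differed most, since 0 genes passed. Tmem252 (ENSRNOG00000025476), which encodes a membrane protein, held 249, 240, 196, 143 and 177 CPM on the deficient diet and 539, 390, 225, 313 and 229 CPM on the excess diet. The 2 highest were the excess libraries of the lower numbers, and the log2 difference of 0.83 (SE 0.17) had an edgeR adjusted p of 0.243. Avpr1a (ENSRNOG00000004400), the vasopressin V1a receptor, held 7.96, 11.2, 15.4, 6.81 and 9.38 CPM on the deficient diet and 30.2, 32.5, 11, 22 and 19.7 CPM on the excess diet. Excess replicate 3 alone lay inside the deficient range. The log2 difference of Avpr1a was 1.26 (SE 0.26, 95% interval 0.73 to 1.79), with an adjusted p of 0.243 in edgeR, 0.00366 in DESeq2 and 0.0322 in limma voom, which made it the only gene named here that both of the latter called.

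Among the other 10 of these genes, 5 had groups that did not overlap. Slc52a3 (ENSRNOG00000005132), a riboflavin transporter, stood at 6.4 to 10.5 CPM on the deficient diet and 10.5 to 17 CPM on the excess diet, where the lowest excess library lay just above the highest deficient one. Maob (ENSRNOG00000029778), the mitochondrial monoamine oxidase B, held 322, 277, 304, 276 and 303 CPM on the deficient diet and 524, 440, 361, 346 and 408 CPM on the excess diet. Its gap was wider relative to the spread, and its log2 difference was 0.50 (SE 0.12, edgeR adjusted p 0.335). Prss23, a serine protease, stood at 563 ± 32.4 and 711 ± 82.5 CPM, and Cyb561, an electron-transferring membrane cytochrome, at 75.8 ± 3.42 and 91.1 ± 7 CPM (SD, n = 5 each), also with no overlap. Samd12 was the other gene with separate groups, at 6.34 ± 0.963 and 9.81 ± 2.28 CPM. Il33 (ENSRNOG00000016456), a nuclear cytokine released from damaged barrier cells, held 908, 715, 841, 550 and 713 CPM on the deficient diet and 1362, 1006, 843, 924 and 1128 CPM on the excess diet, where the groups overlapped. Gatm, the first enzyme of creatine synthesis, stood at 74.7 ± 4.98 and 94.8 ± 13.5 CPM, and Chn2, a GTPase-activating protein for Rac, at 33.6 ± 4.44 and 43.8 ± 8.91 CPM. The centrosomal gene Cep85l stood at 20.3 ± 2.4 and 26.8 ± 3.25 CPM, and Ica1l at 1.81 ± 0.508 and 3.49 ± 1.69 CPM (SD, n = 5 each).

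Of the genes with the smallest p that were lower on the excess diet, 11 are described. They were Nid2, Tns3, Col4a6, Adam12, Lama4, Tbx5, Myh10, Prg4, Fcgr2al1, Col3a1 and Osbpl3, with edgeR adjusted p from 0.335 to 0.431. Nid2 (ENSRNOG00000000341), a nidogen of the basement membrane, held 71.8, 119, 118, 107 and 110 CPM on the deficient diet and 62.7, 80.3, 77.1, 87.4 and 80.6 CPM on the excess diet. Deficient replicate 1 alone lay inside the excess range, and the log2 difference was -0.46 (SE 0.11, edgeR adjusted p 0.335). Lama4, a laminin chain of vascular basement membranes, stood at 259 ± 38.6 and 200 ± 24.6 CPM, and Col4a6, a type IV collagen chain, at 13.8 ± 1.59 and 9.49 ± 2.95 CPM (SD, n = 5 each).

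The fibrillar collagen gene Col3a1 (ENSRNOG00000003357) held 2126, 2071, 2334, 2238 and 3452 CPM on the deficient diet and 1220, 1419, 1790, 2281 and 1963 CPM on the excess diet, with a log2 difference of -0.61 (SE 0.16, edgeR adjusted p 0.409). Excess replicate 4 overlapped the deficient range, and deficient replicate 5 stood above all others. Tbx5, a transcription factor of heart and lung mesenchyme, was low in both groups, at 1.86 to 2.13 CPM on the deficient diet and 0.443 to 1.2 CPM on the excess diet with no overlap. Tns3, a focal adhesion tensin, also did not overlap, at 199 ± 22 and 150 ± 27.6 CPM. Adam12, a membrane metalloprotease, stood at 18.3 ± 4.66 and 11.1 ± 1.4 CPM, and Myh10, a nonmuscle myosin heavy chain, at 58.5 ± 12 and 39.3 ± 13.3 CPM (SD, n = 5 each), both with overlap. Prg4, which encodes the lubricant proteoglycan lubricin, showed the widest gap between the ranges of library numbers, with a log2 difference of -1.79 in the lower and -0.37 in the higher. Osbpl3, an oxysterol-binding protein, stood at 2.27 ± 0.486 and 1.36 ± 0.306 CPM. Fcgr2al1, at 20.4 ± 5.35 and 11.3 ± 4.94 CPM, is uncertain, since Fc receptor genes are near-identical and reads can be shared out between them.

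**Figure D3:**
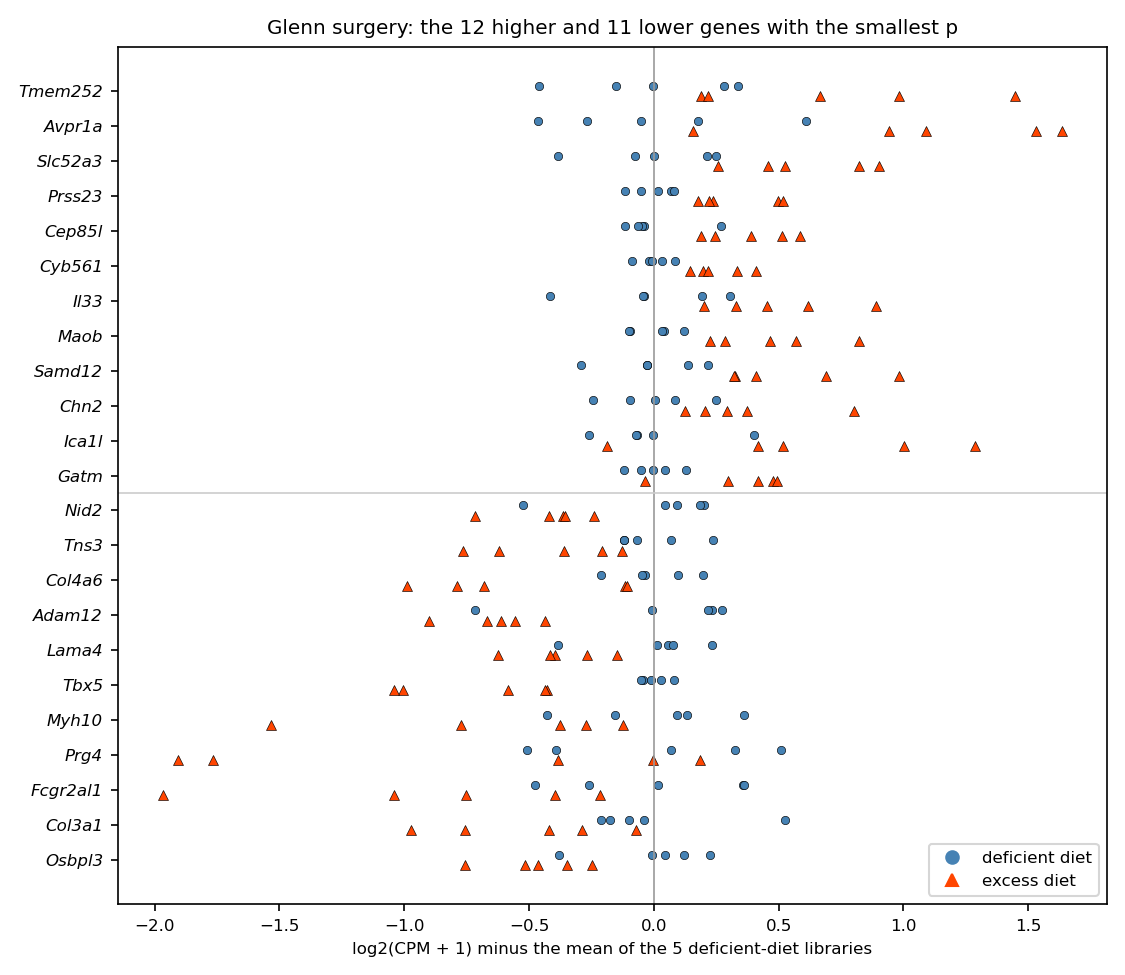
Each library's log2(CPM + 1) minus the mean of the 5 deficient libraries (x axis) for the 12 higher and 11 lower genes with the smallest p (y axis); circles are deficient and triangles excess libraries after Glenn surgery. The groups do not overlap for 5 of the 12 higher and 2 of the 11 lower genes.

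All 23 genes kept the sign of their difference in both ranges of library numbers and with each of the 10 libraries left out. They were chosen by the smallest p in a fit that holds these same libraries. Their kept signs were thus largely set by that choice and are given as a description only. Avpr1a was higher by 1.43 in the lower and 1.12 in the higher numbers on the log2 scale, Slc52a3 by 0.77 and 0.66, and Il33 by 0.51 and 0.61. Samd12 differed more between the ranges, at 0.95 and 0.33. DESeq2 called 14 of the 23, from the same counts by which they were chosen. Its adjusted p was 0.0498, just under the threshold, for Nid2, Myh10, Cyb561, Tns3, Maob, Samd12, Fcgr2al1 and Col4a6. Among its other calls were Cyp26b1, Lrrn1, a leucine-rich repeat membrane protein, and the placeholder-named gene AABR07002627.1. The limma voom test called Avpr1a and Ccl24, a chemokine that attracts eosinophils, the latter with an adjusted p of 0.0187 against 0.639 in edgeR. Lrrn1, AABR07002627.1 and Ccl24 are named here after their values were seen.

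**Figure D4:**
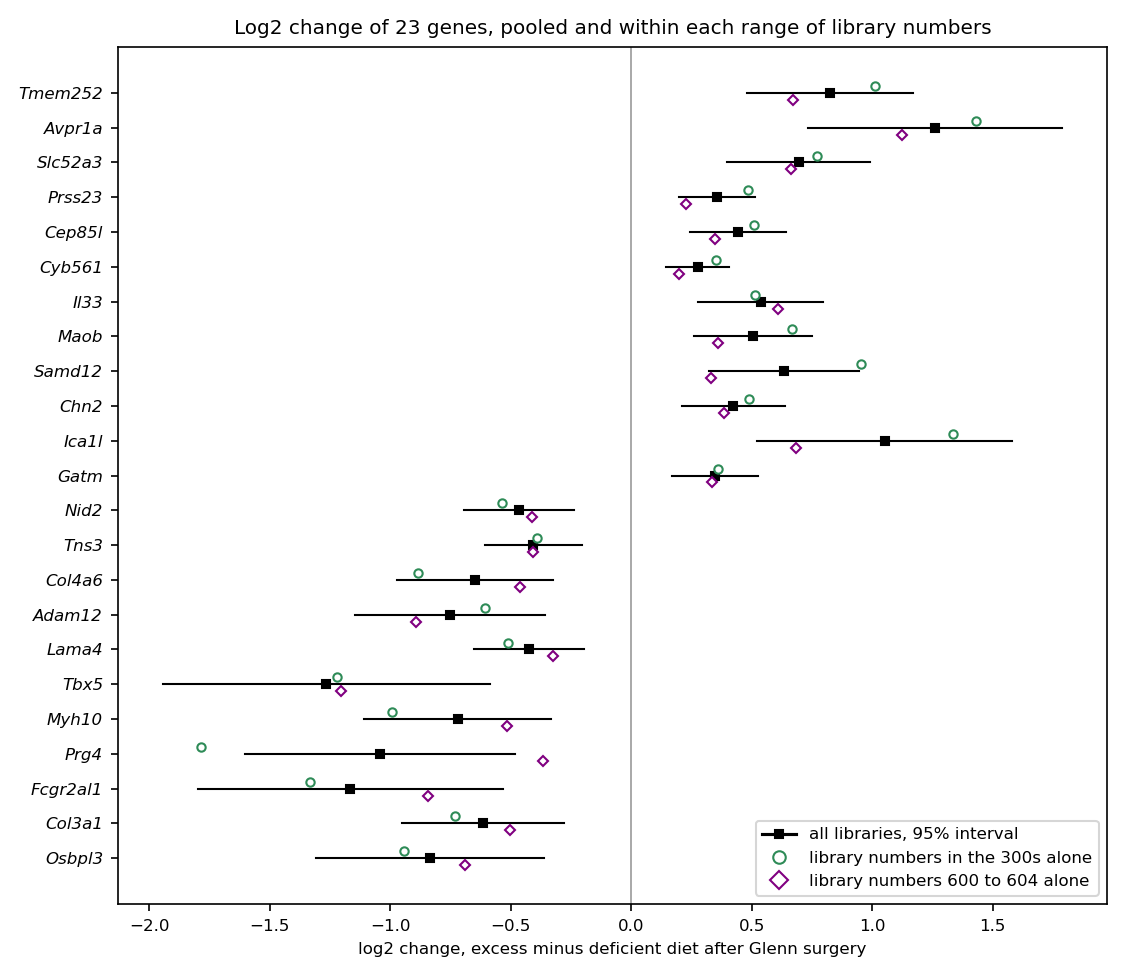
Fitted log2 change of the 23 genes, excess minus deficient after Glenn surgery (x axis), with its 95% interval (squares and lines), beside the change among libraries with numbers in the 300s (circles) and among those with numbers of 600 to 604 (diamonds). For each gene the 3 values lie on the same side of 0, which the choice of genes by p in these same libraries favours. Prg4 moves most between the ranges, from -1.79 to -0.37.

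Most matrix genes had lower levels on the excess diet, but 0 of the 31 tested passed. Of the 31, 28 were below 0 with a median log2 difference of -0.23. An unadjusted p under 0.05 was reached by 7 (22.6%, beside 5.18% over all genes tested), all lower: Col1a1, Col1a2, Col3a1, Col6a3, Lox, Loxl1 and Mmp14. Col1a2, a chain of type I collagen, stood at 574 ± 94.7 on the deficient diet and 466 ± 101 CPM on the excess diet, and Col1a1, its partner chain, at 417 ± 66.1 and 295 ± 73.2 CPM. Loxl1, which crosslinks elastin, stood at 70 ± 17.9 and 46.2 ± 14 CPM (SD, n = 5 each). The median of the list was -0.49 among the libraries of the lower numbers and 0.00 among those of the higher numbers. It ranged from -0.33 without deficient replicate 4 to -0.13 without deficient replicate 3. After sham surgery the median of excess minus deficient was -0.36. Against the control diet after Glenn surgery the median was 0.21 for the excess and 0.35 for the deficient diet. Both of these medians rest on the library number term, since all control libraries have lower numbers.

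Markers of fibroblasts share collagen genes with that list. All 9 fibroblast markers had a log2 difference below 0, with a median of -0.50. Of these, 4 (44.4%, beside 5.18% over all genes tested) had an unadjusted p under 0.05 and 0 passed the test (smallest edgeR adjusted p 0.409). Their summed level was 3335 to 4815 CPM on the deficient diet and 1946 to 3412 CPM on the excess diet, overlapping in 1 excess library, and 2002 to 3500 CPM on the control diet after Glenn surgery. Again the median was -0.85 in the lower and -0.05 in the higher library numbers, and after sham surgery it was -0.45. Mural cell markers had medians of -0.94 and 0.43 in the 2 ranges, so their sign turned. In bulk RNA, fewer cells of a type and less RNA per cell cannot be told apart, and the part of fibroblast RNA in the matrix values was not tested. All 7 markers of type 1 alveolar cells, the flat gas-exchange epithelium, were also below 0 (median -0.41; -0.56 and -0.37 in the lower and higher numbers; -0.26 without deficient replicate 4). Ager, a receptor abundant in those cells, stood at 729 ± 178 and 550 ± 99.4 CPM (SD, n = 5 each; edgeR adjusted p 0.95). The 5 tested mesothelial markers were below 0 too, with a median of -0.41. So were the 7 tested erythroid and platelet markers (median -0.42; -0.21 without excess replicate 1), whose summed level was 30.5 to 218 CPM on the deficient and 28.4 to 53.9 CPM on the excess diet, with overlap. Hba-a2, an alpha globin gene of red cells, stood at 73.7 ± 76.3 and 11.8 ± 11.1 CPM (SD, n = 5 each; edgeR adjusted p 0.937). Of the type 1, mesothelial, erythroid and platelet markers, 0 passed the test, and their part in the matrix values was not tested.

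Endothelial markers lay close together on the 2 diets, at a summed 8035 to 9215 CPM on the deficient diet and 7706 to 9776 CPM on the excess diet, with a median log2 difference of 0.05. Of these 10 markers, 9 were above 0 and 0 passed the test. An unadjusted p under 0.05 was reached by 2 (20%, beside 5.18% over all genes tested), Esam and Tek, both higher on the excess diet. Of 8 markers of general capillary cells, the capillary type that can act as a progenitor, 5 were above and 3 below 0. An unadjusted p under 0.05 was reached by 3 (37.5%, beside 5.18% over all genes tested), all higher on the excess diet: Plvap, Cd93 and Ptprb. Cd93 (ENSRNOG00000024799), a lectin-like receptor of endothelium, held 655, 855, 877, 757 and 748 CPM on the deficient diet and 1178, 890, 946, 882 and 1028 CPM on the excess diet. Those groups did not overlap, and the log2 difference was 0.35 (SE 0.12, edgeR adjusted p 0.795). Plvap, which forms the diaphragms of fenestrae and caveolae, stood at 1500 ± 319 and 1945 ± 723 CPM (SD, n = 5 each). Excess replicate 1 was the highest library for Plvap, at 3125 CPM beside 1320 to 2132 CPM in the other 4. The median over the 8 markers was 0.20, and 0.06 without excess replicate 1; it was 0.45 in the lower and -0.01 in the higher library numbers. Of the 8, 0 passed the test. Of 8 tested markers of aerocytes, the gas-exchange capillary cells, 6 were below 0 with a median of -0.20.

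Genes of the BMP9/ALK1 pathway, in which the circulating ligand BMP9 signals through the endothelial receptors ALK1 and endoglin, were split. Of 31 tested, 14 were above and 17 below 0, and 0 passed. In each direction 4 had an unadjusted p under 0.05, together 25.8% beside 5.18% over all genes tested. The receptor gene Acvrl1, which encodes ALK1, held 796, 611, 592, 562 and 587 CPM on the deficient diet and 1042, 741, 585, 678 and 652 CPM on the excess diet (log2 difference 0.27, SE 0.12, edgeR adjusted p 0.95). In both groups replicate 1 was the highest library. By Ddx3y these were the only male libraries of the lower numbers among the 10, and the part of sex in these levels was not tested. Eng, the co-receptor endoglin, showed the same 2 libraries on top, at 1049 and 1330 CPM, with 752 to 801 CPM in the other deficient and 750 to 909 CPM in the other excess libraries. Downstream of the receptors, Smad1, a signal transducer, stood at 339 ± 81.8 and 287 ± 25.7 CPM, Atoh8, an induced transcription factor, at 14.2 ± 2.95 and 10.1 ± 1.24 CPM, and Tmem100, an induced membrane protein, at 434 ± 66 and 550 ± 160 CPM (SD, n = 5 each). Of these, Atoh8 (ENSRNOG00000010716) alone had groups that did not overlap, with a log2 difference of -0.47 (SE 0.13, edgeR adjusted p 0.431). The inhibitory Smad6 stood at 131 ± 29.1 and 137 ± 54.4 CPM and the target Id1 at 87.1 ± 13.5 and 97.5 ± 18.6 CPM, both within the spread.

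Angiogenic genes were split too, with 12 of 33 above 0 and a median of -0.08. At an unadjusted p under 0.05, 3 were higher and 4 lower, together 21.2% beside 5.18% over all genes tested. The receptor genes Tek and Flt1 and the ligand gene Vegfc were on the higher side. Adm, the vasodilator peptide adrenomedullin, Vash1, an endothelium-derived inhibitor of angiogenesis, Unc5b, a netrin receptor, and Nid2 were on the lower side. Adm held 69.1, 117, 92.8, 122 and 111 CPM on the deficient diet and 56.3, 82.3, 67.9, 76.2 and 78.2 CPM on the excess diet (log2 difference -0.52, SE 0.18, edgeR adjusted p 0.797). Vash1 held 139, 256, 251, 243 and 263 CPM on the deficient diet and 168, 165, 183, 189 and 223 CPM on the excess diet (log2 difference -0.36, SE 0.15, edgeR adjusted p 0.95). For both genes deficient replicate 1 was the lowest deficient library, and the other 4 lay above all 5 excess libraries. The tip-cell genes Apln and Angpt2, an apelin peptide and an angiopoietin, stood at 492 ± 105 and 440 ± 62 CPM and at 91.6 ± 15.7 and 83.6 ± 22.7 CPM (SD, n = 5 each), within the spread. Of 26 vasoactive genes, 12 were above and 14 below 0. An unadjusted p under 0.05 was reached by 4 (15.4%), all higher, among them Edn1, the constrictor endothelin, at 223 ± 37.8 and 266 ± 57 CPM, and Calcrl, the receptor for adrenomedullin, at 409 ± 52.1 and 511 ± 54.8 CPM (SD, n = 5 each).

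Cell division, lipid synthesis, glycolysis, interferon and stress genes gave medians near that of all genes. For 24 mitosis genes the median was -0.02 and 0 had an unadjusted p under 0.05, but it was -0.45 in the lower and 0.58 in the higher library numbers. Mki67, a marker of dividing cells, held 10.3, 15, 18.3, 10.7 and 6.79 CPM on the deficient diet and 13, 12.8, 14.1, 10.8 and 10.9 CPM on the excess diet. The deficient libraries spread more widely and enclosed all the excess ones. Among 17 oxidative stress genes, 8 were above and 9 below 0. At an unadjusted p under 0.05, 2 were higher and 1 lower, together 17.6% beside 5.18% over all genes tested. On the lower side was Gpx1, with a log2 difference of -0.22 (SE 0.09, edgeR adjusted p 0.937). On the higher side, the metallothionein gene Mt2A held 21.5, 35.7, 22.2, 12.2 and 18.2 CPM on the deficient diet and 71.4, 60.1, 17.9, 26.9 and 19.1 CPM on the excess diet (log2 difference 0.90, SE 0.25, edgeR adjusted p 0.455). Its 2 high values were the excess libraries of the lower numbers. Of 22 heat shock and unfolded protein genes 17 were above 0, with a median of 0.08 (0.19 in the lower and 0.0072 in the higher library numbers; 0.0088 without excess replicate 1). Of 29 interferon-stimulated genes 7 were above 0, with a median of -0.03. That median was 0.07 in the lower and -0.19 in the higher numbers, and it ranged from -0.15 without deficient replicate 3 to 0.09 without deficient replicate 4. Neither list had a gene with an unadjusted p under 0.05.

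**Figure D5:**
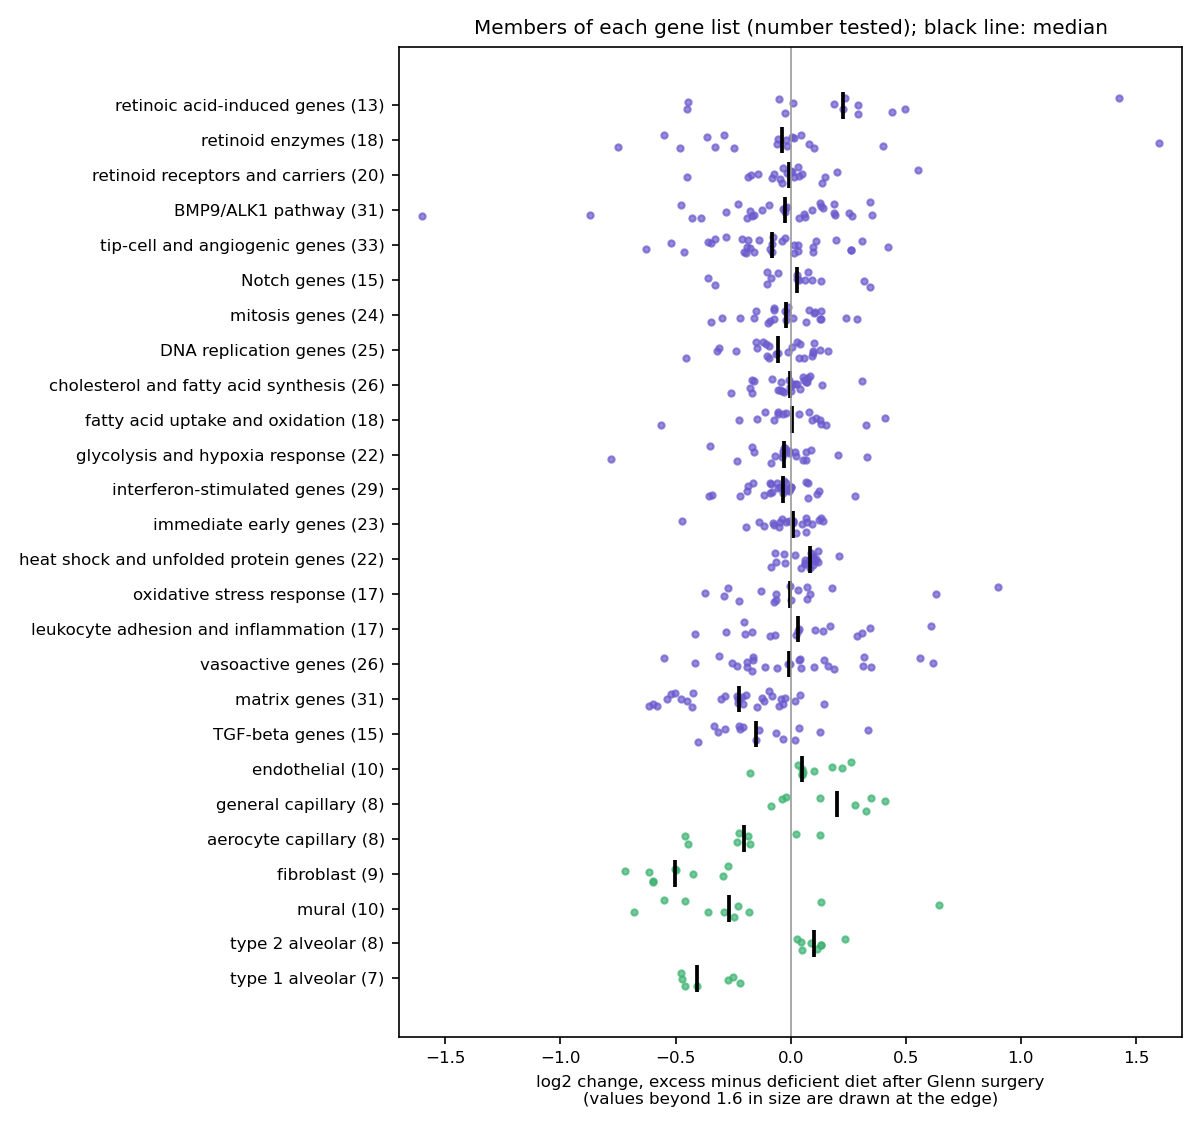
Fitted log2 change, excess minus deficient after Glenn surgery (x axis), of each tested member of 26 gene lists (y axis, number tested in brackets); the black line is the median, purple points are pathway genes and green points cell type markers. Matrix genes have a median of -0.23 and fibroblast markers of -0.50, and the retinoic acid-induced genes one of 0.23; 2 members lie beyond the edge of 1.6.

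The same diets were compared after sham surgery, and the difference between the comparisons was tested in the same fit. For 0 of 16171 genes did the diet difference after Glenn surgery differ from that after sham surgery at an edgeR adjusted p under 0.05 (0%). At an unadjusted p under 0.05 there were 686 genes (4.24%). DESeq2 called 1 gene, Maob (adjusted p 0.0337), and limma voom 0. After sham surgery 854 genes (5.28%) had an unadjusted p under 0.05 between excess and deficient, and 2 genes (0.0124%) passed after adjustment, the interferon-induced GTPase gene Gbp6 (log2 difference -1.55, edgeR adjusted p 0.0247) and C4b, a complement component (-1.13, edgeR adjusted p 0.0375). After Glenn surgery those genes had log2 differences of -0.32 (Gbp6, edgeR adjusted p 0.98) and -0.02 (C4b, edgeR adjusted p 0.999). All 5 sham excess libraries have numbers in the 300s, so after sham surgery the diet comparison within the higher numbers could not be made.

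The 3 genes with the smallest p in that test were Maob, Prss23 and Cab39l. Maob stood at 368 ± 54.3 CPM on the deficient diet and 294 ± 37.7 CPM on the excess diet after sham surgery (SD, n = 5 each), opposite in sign to its difference after Glenn surgery. The difference of differences was 0.90 on the log2 scale (SE 0.18, edgeR adjusted p 0.5). Prss23 gave 0.50 (unadjusted p 0.000216), with 632 ± 33 and 608 ± 28.6 CPM after sham surgery. Cab39l, a partner of the kinase LKB1, stood at 22 ± 1.5 and 24.4 ± 1.44 CPM after Glenn and 22.5 ± 1.12 and 18.5 ± 1.71 CPM after sham surgery (SD, n = 5 each). Vegfa, the main endothelial growth factor, stood at 404 ± 41.2 and 361 ± 57.8 CPM after Glenn and at 1187 ± 117 and 1548 ± 74 CPM after sham surgery, a difference of differences of -0.66 (unadjusted p 0.000453). None of these passed over all genes.

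The 23 genes were last set beside Glenn against sham surgery on the control diet, a comparison that shares no library with excess against deficient. On the control diet 4023 genes (24.9%) changed, 1907 raised and 2116 lowered by Glenn surgery at an edgeR adjusted p under 0.05. All 12 genes that were higher on the excess diet had a log2 change below 0 there, and 9 of them were among the lowered genes. The other 11, lower on the excess diet, all had a log2 change above 0 there, and 6 were among the raised genes. Gatm changed by -1.18 on the log2 scale (edgeR adjusted p 2.35e-11), Slc52a3 by -1.60 and Il33 by -1.06, while Nid2 changed by 1.68 (edgeR adjusted p 3.88e-12), Adam12 by 1.31 and Lama4 by 1.17. For Nid2 the sham level was 30.2 ± 2.37 CPM on the deficient diet and 29.5 ± 1.5 CPM on the excess diet, so both Glenn groups stood well above it.

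The same direction was seen across genes, at a small size and less so in the higher library numbers. Of the 1907 genes that Glenn surgery raised on the control diet, 1205 (63.2%) were lower on the excess than on the deficient diet after Glenn surgery, with a median log2 difference of -0.05. Of the 2116 genes that it lowered, 1443 (68.2%) were higher on the excess diet, with a median of 0.05. Signs were opposite in 65.8% of those genes and in 57.6% of all genes tested, and Pearson's r across all 16171 genes was -0.14; genes are not independent replicates, and no test was made. With 1 of the 10 libraries left out the share was 61% (without excess replicate 1) to 69.3% (without excess replicate 5). It was 67.2% among the libraries of the lower and 56% among those of the higher numbers. The same fit also gave both comparisons 1 shared estimate of the spread and of the library number term. This comparison was chosen after the values of the 23 genes were seen.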

How the data were processed

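Gene expression was measured by RNA sequencing of CD31 microbead-sorted lung cells, with RNA from a PureLink kit and libraries from the SMART-Seq Ultra Low v4 kit, per the labels' protocols. The authors deposited one table of estimated counts per gene from Salmon, with 30562 genes, per the labels and the table's name. The submitters' processing notes name FastQC, Trim Galore, Picard, STAR and Salmon and the builds mRatBN7.2 and rn7, without versions; strandedness and annotation release are not given in the sources used here. Salmon shares reads between near-identical genes by estimate, and without strand a gene and its antisense partner cannot be told apart. All 30 columns were used and 0 left out.

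Estimated counts were rounded, filtered in edgeR 4.0.16 with filterByExpr at a minimum count of 10 and a minimum total of 15, which left 16171 genes, and scaled by TMM. A single fit by glmQLFit (robust = TRUE, after estimateDisp) with glmQLFTest held all 30 libraries with 6 group means and the range of library numbers (below or above 500) as a term; p-values were adjusted by Benjamini-Hochberg over all genes, and an adjusted p under 0.05 is called a difference. DESeq2 1.42.0 and limma 3.58.1 (voom) in R 4.3.3 were alternatives. Others left out the number term, or put RT1-CE16 above or below 100 CPM in its place. Among the 10 libraries that cut gives the same division as the numbers. It therefore cannot address the split of RT1-CE16 by diet within the higher numbers. Further fits added sex, marker scores or a replicate block. The rest used other size factors, the newer dispersion method (legacy = FALSE), no filter or a minimum count of 50. They also took the 10 libraries alone, each range of numbers alone and each library left out. The steps were tested on simulated data. Within groups, the 20 library pairs had Spearman correlations of 0.981 to 0.992 and a chi-square per degree of freedom of 20.5 to 122, so no library repeated another within sampling noise.

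Named genes are the 12 higher and 12 lower with the smallest p among genes of 1 CPM or more that have a real symbol, the 3 with the smallest p for the Glenn minus sham difference, retinoid genes with an unadjusted p under 0.05, and 26 preset genes; 1 of the 12 lower is not reported here. Members of other lists with an unadjusted p under 0.05 were named after their values were seen. The comparison, lists and preset genes were chosen with earlier results of these data known. Promoter windows are RefSeq's (GRCr8); 9 of the 12 higher and 8 of the 11 lower genes had one, and 0 of them held the repeat. Figures were drawn with matplotlib 3.10.9.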

Additional observations from a re-analysis of the deposited data

Results flagged for a closer look

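In groups of 5, Dixon's gap ratio above 0.71 marks a library that stands apart. Over 102 sets (50 genes and the library total, in each of the 2 groups) 10 were marked, where chance gives about 5.1 (1 in 20). Deficient replicate 1 stood apart in 5 of them: high for Cep85l (ratio 0.818; 24.5 CPM against 18.6 to 19.7 in the other 4), Eng (0.837; 1049 CPM beside 752 to 801 CPM) and the receptor gene Acvrl1 (0.792; 796 CPM beside 562 to 611 CPM), and low for Nid2 (0.738; 71.8 against 107 to 119 CPM) and Vash1 (0.841; 139 against 243 to 263 CPM). Excess replicate 1 stood apart for Eng (0.725; 1330 CPM beside 750 to 909 CPM) and for the inhibitory Smad6 (0.792; 232 CPM beside 99.6 to 127 CPM), both high. Replicate 1 of each group was its only male library by Ddx3y among the lower library numbers. The remaining 3 were Col3a1, high in deficient replicate 5 (0.809; 3452 against 2071 to 2334 CPM), Rarb, high in deficient replicate 2 (0.746; 42.7 against 30.4 to 33.5 CPM), and Top2a, which encodes a topoisomerase of dividing cells, high in excess replicate 3 (0.778; 17.7 against 8.49 to 10.5 CPM).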

How the results depend on the processing

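The count of 0 genes between excess and deficient after Glenn surgery held under 23 of 25 alternatives, and DESeq2 gave 18 and limma voom 2. For the difference between Glenn and sham surgery DESeq2 gave 1. With each of the 10 libraries left out the count was 0 throughout, while genes at an unadjusted p under 0.05 numbered 467 without excess replicate 1 to 993 without excess replicate 3, and 1207 in the lower and 477 in the higher library numbers alone. Replicate numbers did not pair the libraries. Deviations of same-numbered libraries from their group means correlated at -0.08 to 0.22. With the range of library numbers also removed they correlated at -0.24 to 0.14, and 0 of 5 then matched its own number best. A replicate block gave 0 genes (811 at an unadjusted p under 0.05). Of 98 named genes, 87 kept their sign under every alternative, and 16 values passed the threshold, all in DESeq2 or limma voom. Apart from the preset genes, the 98 were chosen for a small p in fits that hold these libraries, which favours a kept sign. The sign turned for these log2 differences, of which none passed in edgeR, and the cause was not tested. In the lower library numbers alone: Pecam1 -0.029, Mki67 -0.19, Rdh10 0.016. In the higher numbers alone: Smad6 -0.20, Top2a 0.74, Gpr157 0.24, Hey1 -0.016, Col6a3 0.092, Lum 0.0033. With limma voom: Smad6 -0.090, Top2a 0.27, Stra6 0.00058. For Top2a, the RT1-CE16 cut as a term gave 0.033, marker scores 0.17 and the 10 libraries alone 0.041. For Mki67, the replicate block gave -0.012 and the 10 libraries alone without the term for numbers -0.0029. With each library left out in turn the log2 difference ranged from -0.0035 to 0.18 for Sftpc, -0.031 to 0.11 for Pecam1, -0.17 to 0.19 for Smad6, -0.057 to 0.23 for Mki67, -0.36 to 0.14 for Top2a, -0.13 to 0.016 for Rdh10 and -0.49 to 0.19 for Stra6.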
